A study of Homo sapiens with 4 samples.

Results

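The leukocyte immunoglobulin-like receptors (LILR) and LAIR1 are cell-surface receptors of myeloid and lymphoid cells encoded side by side in the leukocyte receptor complex of chromosome 19. The 10 genes described here, LILRA1, LILRA2, LILRA4, LILRA5, LILRA6, LILRB1, LILRB2, LILRB3, LILRB4 and LAIR1, were chosen by name among the 21865 gene symbols of the deposited tables, and all 10 were found in every table. The RNA came from HL60, KG1a, MonoMac-1 and THP-1, 4 established lines of human acute myeloid leukemia, each sequenced as a single library without replicates. All lines were untreated as far as the labels say, and were grown in medium with fetal bovine serum and antibiotics; the THP-1 sample is titled Thp1_tr, and no label explains the ending. From general knowledge of these lines and not from the labels, THP-1 and MonoMac-1 are monocytic and carry the MLL-AF9 fusion, HL60 is promyelocytic, and KG1a is immature; neither HL60 nor KG1a carries the fusion, so fusion, lineage and line cannot be told apart.

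The LILRA receptors have a short cytoplasmic part and signal through FCER1G, an adaptor that recruits the kinase SYK, so they are called activating. The LILRB receptors and LAIR1 carry tyrosine motifs named ITIMs in their cytoplasmic tails, which bind the phosphatases PTPN6 (SHP-1) and PTPN11 (SHP-2) and dampen activation, so they are called inhibitory. HLA class I molecules are ligands of LILRB1, LILRB2 and LILRA1, collagens are ligands of LAIR1, and LILRB4 is known as a surface antigen of monocytic leukemia.

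Outside KG1a nearly all of the family's RNA came from LAIR1, LILRB4 and LILRA2, and the 4 lines differed in which of them they held. HL60 held LAIR1 and LILRA2 without LILRB4. THP-1 and MonoMac-1 held all 3 genes. KG1a held none of them at 1 RPKM, the level (reads per kilobase of gene, scaled to the library total) at which a gene is called measured here, and its leading family transcript was LILRB1. The windows around the RefSeq start sites of the 3 abundant genes (build GRCh38.p14, 250 bases before the start and 50 after it, 5′ to 3′ on the gene's strand) are printed because these genes shared low values in KG1a and differed in HL60. Capitals mark every match to GAGGAA, the purine box bound by PU.1 (the product of SPI1), and to GGAA followed by any 2 bases and GAAA, a composite of the ETS and IRF type, both searched on either strand. LILRB4 lies at chr19:54662735-54663034 on the plus strand, LILRA2 (the second of its listed starts) at chr19:54573581-54573880 on the plus strand, and LAIR1 (its first start) at chr19:54364882-54365181 on the minus strand.
LILRB4: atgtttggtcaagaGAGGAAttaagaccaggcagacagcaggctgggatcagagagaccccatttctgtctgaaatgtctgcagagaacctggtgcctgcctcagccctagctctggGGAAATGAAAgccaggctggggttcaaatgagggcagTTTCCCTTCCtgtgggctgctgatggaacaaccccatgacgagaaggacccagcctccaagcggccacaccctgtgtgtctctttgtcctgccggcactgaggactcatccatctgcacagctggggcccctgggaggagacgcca
LILRA2: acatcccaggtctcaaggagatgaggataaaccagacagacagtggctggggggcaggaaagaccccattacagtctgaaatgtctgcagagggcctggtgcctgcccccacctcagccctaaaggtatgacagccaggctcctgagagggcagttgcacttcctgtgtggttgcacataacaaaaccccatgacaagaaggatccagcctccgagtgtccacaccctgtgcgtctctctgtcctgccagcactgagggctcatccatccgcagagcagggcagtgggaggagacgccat
LAIR1: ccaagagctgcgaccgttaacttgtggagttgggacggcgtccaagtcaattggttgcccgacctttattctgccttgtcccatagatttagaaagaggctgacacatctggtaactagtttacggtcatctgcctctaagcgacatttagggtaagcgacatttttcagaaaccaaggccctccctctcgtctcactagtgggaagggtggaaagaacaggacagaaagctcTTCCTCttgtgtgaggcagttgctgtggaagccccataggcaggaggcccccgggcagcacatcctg

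The LILRB4 window held 2 composite matches, beginning at bases -133 and -96 from the start and not overlapping the GAGGAA match at base -236. The RefSeq table held 15 windows for 8 of the members, some of them overlapping windows of 1 gene, and none for LILRA4 and LILRA6. The composite was found in 1 of the 15 windows, against 2.82% of all 35116 windows of the same length. GAGGAA was found in 6 of the 15 windows, of 5 genes, against 27.9% of all windows. LAIR1 held it at base -17 of its first start and at base -163 of its second, and neither LILRA2 window held it. The C/EBP-type motif TTGCNNAA, which 3673 of all windows held, was absent from the LILRB4, LILRA2 and LAIR1 windows. The LILRB4 and LILRA2 windows are related copies, identical at 239 of 300 bases in a global alignment, and LILRB3 was identical to LILRB4 at 241. At the first composite match of LILRB4 the alignment placed these stretches of the related windows.
LILRB4: GGAAATGAAA
LILRB3: GGAAATCAGA
LILRA2: AGGTATGACA
LILRA1: AAGAATGAGA
At the second match, written on the gene's strand, the stretches were as follows, and none of the related copies held the composite there.
LILRB4: TTTCCCTTCC
LILRB3: TTCCTCTTCC
LILRA2: TTGCACTTCC
LILRA1: TTCTGCTTCC
Factors of these motif classes were not equally abundant across the lines. Of 7 listed myeloid factors, 2 were at least 4-fold higher in both monocytic lines than in both others (4.35% of measured genes). In KG1a, 5 of the 7 were at least 4-fold lower than in each other line (7.38%), CEBPA among them. CEBPB and RUNX1 met neither rule. IRF8, an IRF-family factor of monocytes, stood at 231 RPKM for THP-1, 163 for MonoMac-1, 0.599 for HL60 and 0.0216 for KG1a. SPI1 stood at 117 RPKM for HL60, 98.9 for THP-1, 168 for MonoMac-1 and 1.41 for KG1a. LILRB4 was thus found in the lines with abundant IRF8, and LILRA2 and LAIR1 in those with abundant SPI1, although the LILRA2 windows hold no GAGGAA and the LILRB4 window does; a match is a description of letters, and the part of either factor in these levels was not tested.

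Gene-assigned sequence ran from 6.04 gigabases for THP-1 up to 13.6 for MonoMac-1. The counting intervals given below are exact 95% Poisson intervals on the base sum of a gene divided by 200, the bases of a fragment of paired reads of 100 bases, a length inferred from the values. They cover counting error only, not the variation between cultures, which was not measured. In MonoMac-1 few low base sums were multiples of 100 (9.99% against 41.5% to 46.7% in the other lines). The fragment length and the counting intervals are therefore less certain for MonoMac-1. Defining markers fitted the lines in part. Of 7 progenitor and granulocyte markers MPO was highest in HL60 (4610 RPKM) and CD34 and GATA2 in KG1a (494 and 48.2 RPKM). The granule protein genes ELANE, PRTN3 and AZU1, however, were higher in both monocytic lines, ELANE at 1313 RPKM for MonoMac-1 against 76.6 for HL60. KIT, another progenitor marker, stood at 9.06 RPKM for THP-1 and 0.00634 for KG1a. Of 12 monocyte markers 8 were at least 4-fold higher in both monocytic lines than in both others (4.35% of measured genes), although CD14 reached only 1.28 RPKM for THP-1 and 4.13 for MonoMac-1. In HL60, 19 genes abundant in KG1a and near 0 in the monocytic lines stood at a median of 2.71% of their KG1a level; of the members this touches LILRB1 most, where it comes to 0.0389 of the 0.0991 RPKM for HL60.

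Among the inhibitory receptors, LILRB4 was the member that most separated the monocytic pair from both other lines. LILRB4 (chromosome 19, 55174124 to 55179846 in hg19, the build of the tables) is an inhibitory receptor of monocytes and dendritic cells. It stood at 57.0 RPKM for THP-1 (counting interval 55.3 to 58.8), with 35.3 for MonoMac-1 (34.4 to 36.3), and was listed at 0 in HL60 and KG1a. Both monocytic lines were high, both other lines had no base on the gene, and the groups did not overlap; at these depths 3 fragments would have given 0.0292 RPKM for HL60 and 0.0236 for KG1a. Of the 1988 genes that reached 30 RPKM in both THP-1 and MonoMac-1, 3 were listed at 0 in both HL60 and KG1a: LILRB4, the metallothionein gene MT1E and C20orf103 (LAMP5). An exact 0 is a stricter cut than 3 fragments, and 30 RPKM lies under both LILRB4 levels. The count of 3 therefore does not show how rare such a profile was. LPHN2 (56.2 RPKM for THP-1, 44.3 for MonoMac-1) was at most 0.00178 RPKM in HL60 and KG1a. NAPSB (36.9 and 38.6 RPKM in the same lines) was at most 0.00751 there. By level LILRB4 ranked 1129 of the 21865 symbols for THP-1, with rank 2194 for MonoMac-1. Of the 12 monocyte markers 11 were higher in both monocytic lines than in both others (22.1% of all measured genes), ITGAM being the exception. Their summed RPKM was 5360 for MonoMac-1 and 1077 for THP-1, against 30.1 for HL60 and 6.01 for KG1a, and most of it in MonoMac-1 (4837) and much of it in THP-1 (510.3) was the lysozyme gene LYZ. Whether more cells of a culture made LILRB4 or each cell made more cannot be told apart in bulk RNA, and the part of monocytic identity was not tested.

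LILRB1 and LILRB2, both receptors for HLA class I, were scarce; LILRB2 was higher in the same lines as LILRB4, far below its level, and LILRB1 was not. LILRB1 (55128629 to 55149004), which lymphocytes and NK cells carry as well as monocytes, stood at 1.44 RPKM for KG1a (1.27 to 1.62), 0.873 for THP-1 (0.704 to 1.07), 0.263 for MonoMac-1 and 0.0991 for HL60. KG1a was highest and HL60 lowest, and no neighbours in that order had overlapping counting intervals. Of 11 markers of T, NK and B cells 5 were measured, and 2, CD3D and CD3E, were at least 4-fold lower in the monocytic pair than in both other lines (2.21% of all measured genes). CD79A was highest in HL60 (6.36 RPKM), and NKG7 (159 RPKM) and NCAM1 (12.4 RPKM) were highest in MonoMac-1; the part of these markers in the LILRB1 order was not tested. LILRB2 (54777675 to 54785033) stood at 0.853 RPKM for THP-1 and 0.616 for MonoMac-1 against 0.0890 for KG1a and 0.0545 for HL60. The monocytic lines were thus at least 6.92 times above the other lines in LILRB2, with overlapping counting intervals inside each pair, but the gene stayed under 1 RPKM everywhere. LILRB3 (54720147 to 54726959), an inhibitory receptor of myeloid cells, was near the floor, from 0.0387 RPKM for THP-1 to 0.182 for MonoMac-1, and the intervals of HL60, KG1a and THP-1 overlapped along the order.

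LAIR1, the inhibitory collagen receptor of most leukocytes, was the most abundant member in 3 lines. LAIR1 (54865235 to 54876721) stood at 143 RPKM for MonoMac-1 (141 to 145), 78.5 for THP-1 (76.7 to 80.3), 34.6 for HL60 (33.7 to 35.6) and 0.517 for KG1a (0.415 to 0.636). Every step of that order exceeded counting error: MonoMac-1 was 1.82 times THP-1, THP-1 was 2.27 times HL60, and HL60 was 67.1 times KG1a. KG1a stood apart from the other 3 lines far more than these differed among themselves. LAIR1 ranked 402 of all symbols for MonoMac-1, 785 for THP-1, 2136 for HL60 and 11713 for KG1a. Its soluble relative LAIR2, no member of the set, stood at 0.800 RPKM for HL60, 1.15 for THP-1, 0.948 for MonoMac-1 and 0.00656 for KG1a, between 0.664% and 2.31% of LAIR1. Of the distinct 100-base windows of LAIR2 transcripts 15.9% also occur in LAIR1 transcripts, so reads of the pair may be shared.

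**Figure D1:**
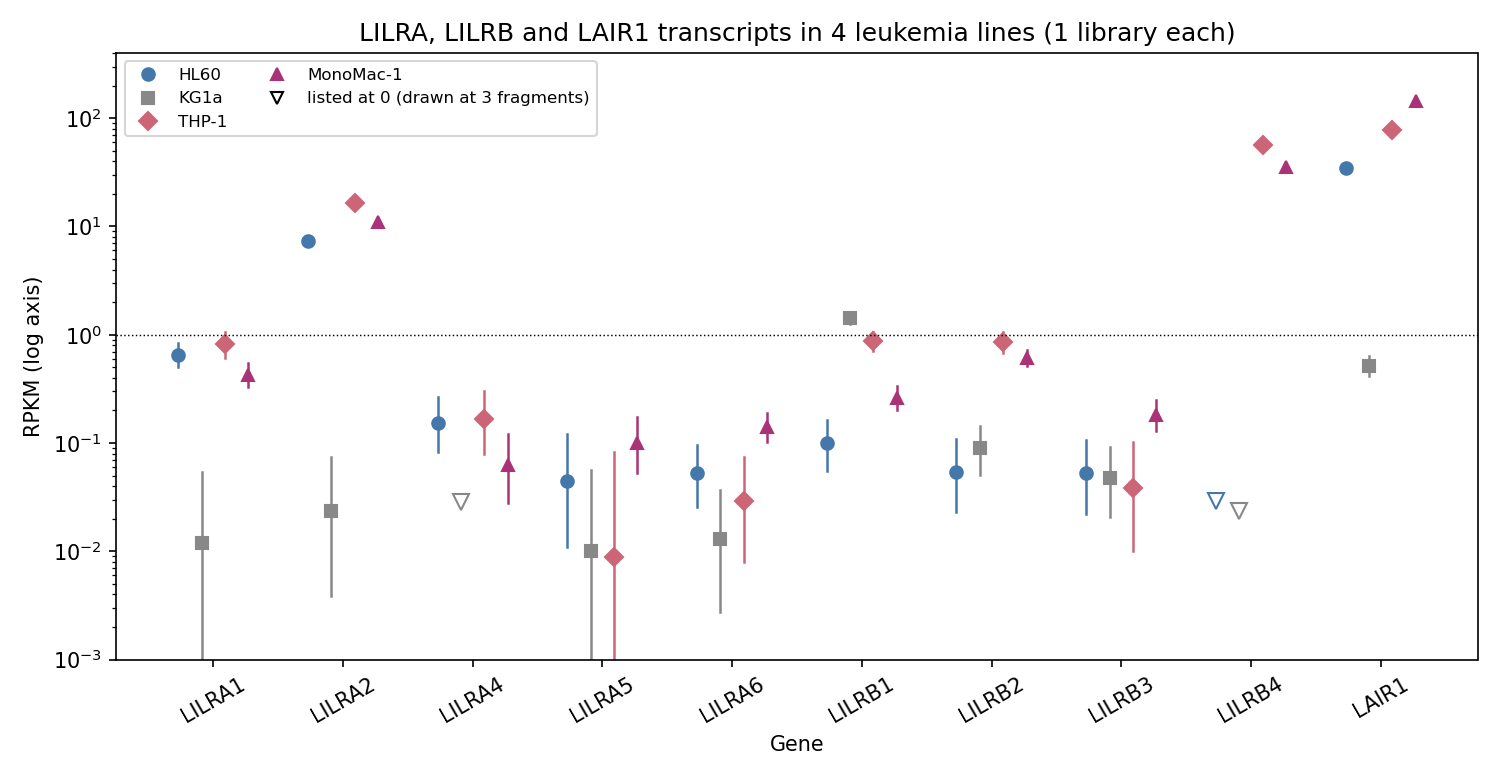
RPKM of the 10 genes (log axis) in HL60, KG1a, THP-1 and MonoMac-1, 1 library each; vertical lines are 95% counting intervals, cut off at the lower edge of the plot, open triangles mark genes listed at 0, drawn at the RPKM of 3 fragments, and the dotted line is 1 RPKM. LILRB4 is high in THP-1 (57.0) and MonoMac-1 (35.3) only, LILRA2 and LAIR1 are low in KG1a only, and 6 genes stay under 1 RPKM in every line.

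Of the activating receptors LILRA2 alone was measured. LILRA2 (55085257 to 55099027), a receptor of myeloid cells that recognises immunoglobulins cut by microbial proteases, stood at 16.3 RPKM for THP-1 (15.3 to 17.4), 10.99 for MonoMac-1 (10.4 to 11.6), 7.41 for HL60 (6.85 to 8.01) and 0.0233 for KG1a. The KG1a value rested on 2.5 fragments, under the floor of 3, while no interval of the other 3 lines overlapped its neighbour's. THP-1 stood at 1.49 times MonoMac-1, and MonoMac-1 at 1.48 times HL60. LILRA2 and LAIR1 thus shared low KG1a values, but their order between THP-1 and MonoMac-1 was opposite.

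The other activating genes lay near the floor. LILRA1 (55105113 to 55112540), a neighbour of LILRA2 that binds HLA class I, stood at 0.817 RPKM for THP-1, 0.653 for HL60, 0.426 for MonoMac-1 and 0.0120 for KG1a, the last from 1.4 fragments. It amounted to 3.87% of LILRA2 for MonoMac-1, 5.01% for THP-1 and 8.82% for HL60, and none of its 2922 distinct 100-base windows occurs in a transcript of another gene. LILRA4 (54844692 to 54850421), a receptor of plasmacytoid dendritic cells, stood at 0.165 RPKM for THP-1, 0.154 for HL60 and 0.0625 for MonoMac-1, and was listed at 0 in KG1a. Along the order of LILRA4 all neighbouring lines had overlapping intervals, and CLEC4C, the defining antigen of those dendritic cells, was at most 0.0220 RPKM. Of 7 markers of those cells 5 were measured, with 2, PTCRA and SPIB, at least 4-fold higher in the monocytic pair (4.35% of all measured genes), while TCF4 was highest in KG1a (12.2 RPKM). LILRA5 (54818353 to 54824409), an activating receptor of monocytes, stood at 0.101 RPKM for MonoMac-1, 0.0447 for HL60, 0.0101 for KG1a and 0.00891 for THP-1, and again all neighbours overlapped. LILRA6 (54740469 to 54746724), whose extracellular part closely resembles that of LILRB3, stood at 0.142 RPKM for MonoMac-1, 0.0531 for HL60, 0.0293 for THP-1 and 0.0129 for KG1a.

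Similar copies limit some of these low values. Exact 100-base windows of LILRA6 transcripts occur in another gene's transcripts for 13.6%, most often in LILRB3, where the share was 10.4%. LILRA6 and LILRB3 were both highest in MonoMac-1, and how the authors assigned reads that fit both was not stated in the sources used here. This share came to 14.0% for LILRA4, 13.5% for LILRA2, 3.08% for LAIR1, 2.75% for LILRB2 and 2.32% for LILRB1. The 748 shared windows of LILRA2 all occur in AC245036.5, a gene outside the set, and in no other gene. The 258 of LILRA4 all occur in AC245884.11, also outside the set, and some of them in LILRB3 or LILRA6 as well. LILRB4, LILRA1 and LILRA5 shared no window with another gene. LILRA3, which encodes a soluble receptor, LILRB5 and the pseudogene LILRP2, no members of the set, were at most 0.0163 RPKM in any line.

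Summed over the 10 genes the family reached 191.0 RPKM for MonoMac-1, 155 for THP-1, 43.2 for HL60 and 2.15 for KG1a. LAIR1 made up 74.8% of the sum in MonoMac-1, 50.8% in THP-1 and 80.3% in HL60, and LILRB1 made up 66.8% in KG1a. The activating LILRA genes summed to 17.3 RPKM for THP-1, 11.7 for MonoMac-1, 8.32 for HL60 and 0.0585 for KG1a. The inhibitory LILRB genes summed to 58.8 RPKM for THP-1, 36.4 for MonoMac-1, 1.57 for KG1a and 0.207 for HL60. The ratio of LILRB to LILRA transcripts was therefore alike in the monocytic lines, 3.39 for THP-1 and 3.11 for MonoMac-1, and 0.0248 for HL60, whose LILR transcripts were mostly LILRA2. In KG1a the ratio was 26.9, on an activating sum made of genes near the floor. In THP-1 and MonoMac-1 LILRB4 gave 97.0% and 97.1% of the inhibitory sum, and LILRA2 gave 94.1% and 93.8% of the activating sum.

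**Figure D2:**
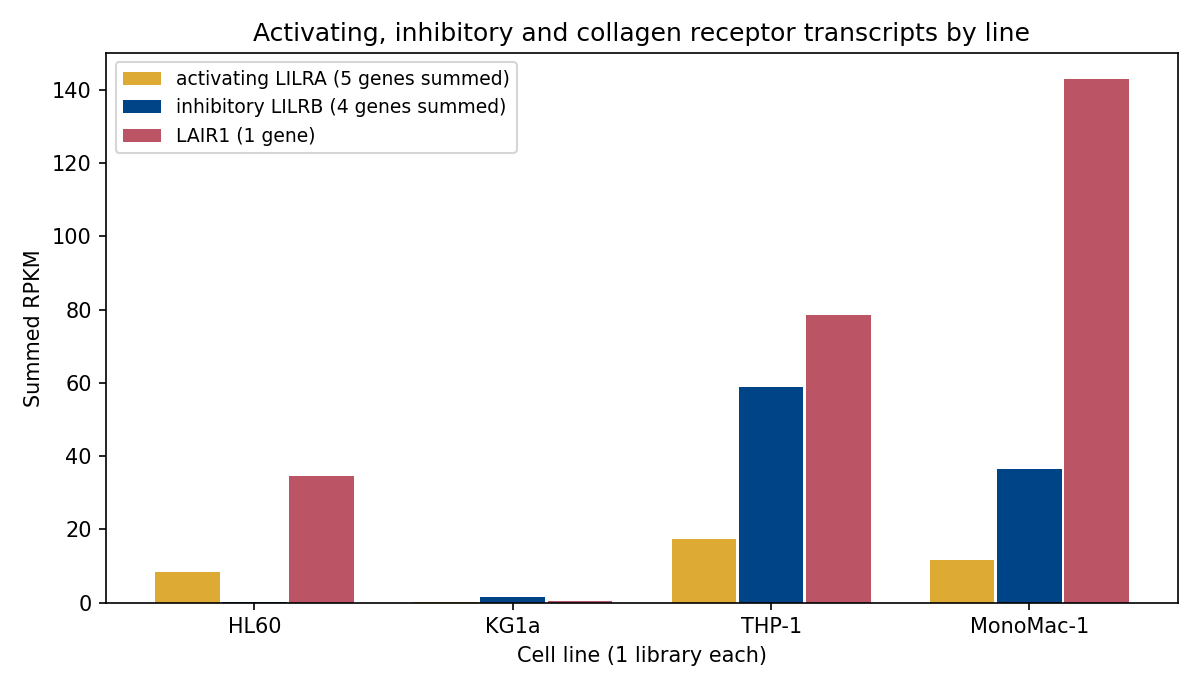
Summed RPKM (linear axis from 0) of the 5 activating LILRA genes, the 4 inhibitory LILRB genes and LAIR1 in each line, 1 library per line. The inhibitory bar reaches 58.8 for THP-1 and 36.4 for MonoMac-1 and is near 0 in HL60, where LAIR1 stands at 34.6, and all bars are low in KG1a.

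The monocytic pair was set against HL60 and KG1a, the contrast that the series title's MLL-AF9 theme implies, by asking whether the lowest RPKM of one pair was at least 4 times the highest of the other. Of the 10 genes, 4 reached 1 RPKM in a line and 6 did not. LILRB4 was the 1 measured member at least 4-fold higher in the monocytic lines, where 4.35% of the 12976 measured genes were, and 0 members were 4-fold lower, where 2.21% were (66.3% of the genes apart were higher, and 54.0% after quantile normalization). By any margin LILRB4, LILRA2 and LAIR1 were higher in both monocytic lines (22.1% of measured genes) and 0 were lower (19.6%). A gene measured only through its high lines had to differ, so these counts say little about the family. LILRA2 and LAIR1 were also at least 4-fold lower in KG1a than in each of the other 3 lines, as were 7.38% of measured genes.

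With limma on log2(RPKM + 1), the line being the unit, 0 members and 0.0% of all genes passed an adjusted p of 0.05. Without adjustment 767 genes were higher and 342 lower at a p under 0.05, LILRB4 and LAIR1 among the higher. LILRB4 differed by 5.52 ± 0.45 (log2, SE; limma adjusted p = 0.0877). Over the alternatives that kept all lines its limma adjusted p ran from 0.0484, with genes under 5 RPKM left out, to 0.337, with no minimum. LILRB4 was measured only through the monocytic lines, and its values of 0 in HL60 and KG1a are a floor without spread. Its p and SE are therefore no independent support for a difference. LAIR1 differed by 3.86 ± 1.5 (log2, SE; limma adjusted p = 0.584), and the difference was 1.59 without KG1a and 6.14 without HL60. LILRA2 differed by 2.30 ± 1.06 (log2, SE; limma adjusted p = 0.648), and the difference was 0.78 without KG1a and 3.82 without HL60. LILRB1 differed by -0.09 ± 0.63 (log2, SE; limma adjusted p = 0.976) and changed direction in 3 of 8 alternatives. None of the 4 differences passed the threshold against the spread between lines, and the 2 residual degrees of freedom measure that spread and not the one between cultures.

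The monocytic pair differed between themselves as well. THP-1 held more LILRB4 (1.61 times), LILRA2 (1.49 times) and LILRB1 (3.32 times) than MonoMac-1, and less LAIR1 (0.549 times). Of the 4 measured members LILRB1 was the 1 at least 2-fold apart between these lines, as were 27.9% of measured genes. Among the genes under 1 RPKM, LILRB3 was 4.70 times and LILRA6 4.85 times higher in MonoMac-1 with intervals that did not overlap. LILRA1 was instead 1.92 times higher in THP-1, also without overlap. The THP-1 values of LILRB3 and LILRA6 rested on 3.8 and 4.0 fragments, and reads of these similar genes may be shared. Each fold between THP-1 and MonoMac-1 is a difference between single libraries, without a test.

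Other genes lie among and beside the family on chromosome 19. The 10 genes span 460 kilobases (54720147 to 55179846), and the tables list 36 other genes there and within 300 kilobases on either side, of which 15 were measured. Of these 15, 0 were 4-fold higher in the monocytic lines (4.35% of all measured genes), 1 was lower (VSTM1; 2.21%), and 3 were 4-fold lower in KG1a than in each other line (LENG9, LAIR2 and FCAR; 7.38%). With 15 genes a count of 0 lies near the share over all genes. LENG8, which lies between LAIR1 and LILRA2, stood at 47.0 RPKM for MonoMac-1, 34.9 for THP-1, 30.7 for KG1a and 30.6 for HL60. RPS9, a ribosomal protein gene next to LILRB3, was between 600.1 and 987 RPKM in the 4 lines. The 9 KIR genes of the region, a family of NK cell receptors, stayed under 1 RPKM, with a highest value of 0.764. FCAR, the receptor for immunoglobulin A, was instead highest in HL60, at 10.4 RPKM against 0.259 for THP-1 and 0.368 for MonoMac-1, and was listed at 0 in KG1a.

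**Figure D3:**
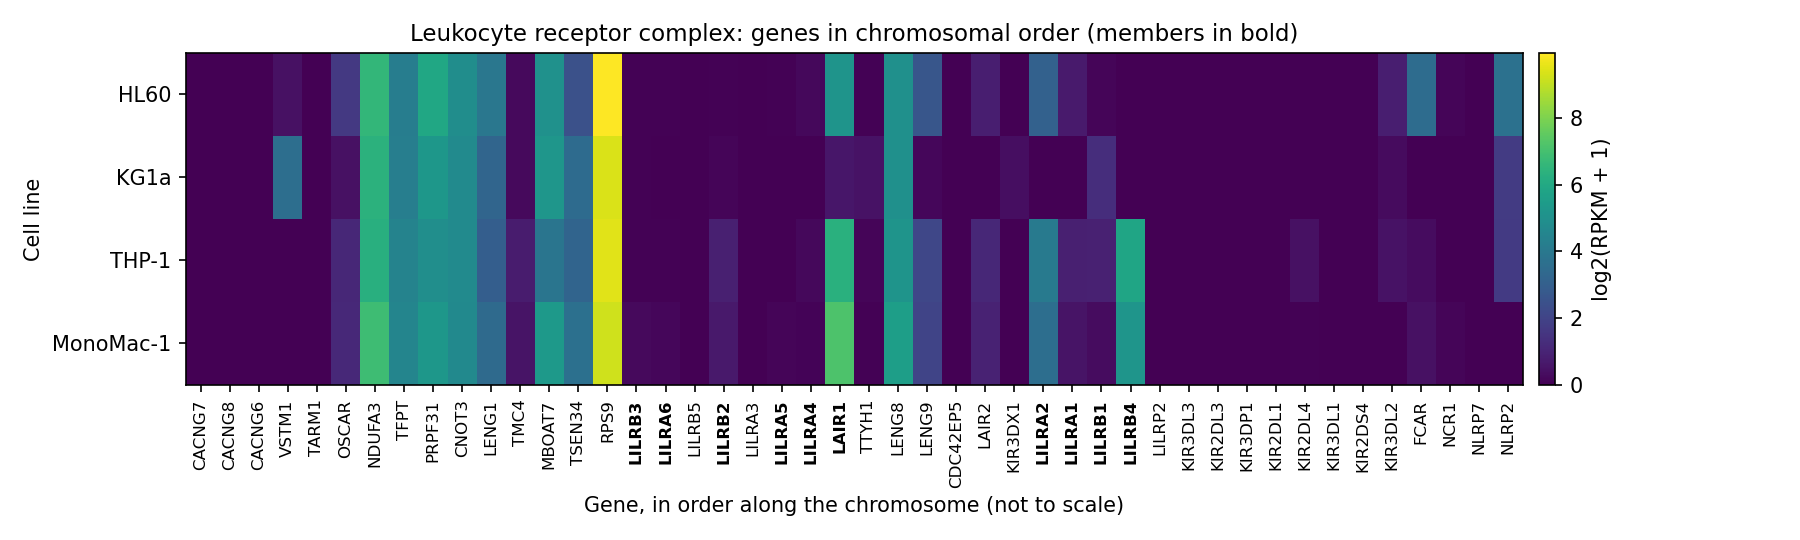
Level as log2(RPKM + 1), by colour, of the 46 genes listed from 300 kilobases before the first member to 300 kilobases after the last, in chromosomal order (not to scale), in each line; members are in bold. LILRB4 is coloured in THP-1 and MonoMac-1 only, while neighbours such as LENG8 and RPS9 have similar colours in all 4 lines.

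Signalling partners of the receptors were listed from textbook knowledge of the pathway. Of the 6 adaptors and kinases of the activating side described here, 0 were 4-fold apart between the pairs in either direction (6.56% of all measured genes). Their median log2 difference was 0.95, against 0.02 over all measured genes. In KG1a 2 of them, TYROBP and FGR, were 4-fold lower than in each other line (7.38% of measured genes). FCER1G, the LILRA adaptor, was present in every line, at 146 RPKM for THP-1, 115 for MonoMac-1, 44.1 for KG1a and 23.0 for HL60. SYK, the kinase it recruits, was between 59.2 and 86.2 RPKM in all lines. TYROBP, an adaptor of related receptors, stood at 203 RPKM for MonoMac-1, 73.5 for THP-1, 29.2 for HL60 and 0.618 for KG1a.

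The inhibitory side differed in the phosphatases. Of PTPN6, PTPN11, INPP5D and the kinase CSK, 0 were 4-fold apart between the pairs in either direction (6.56% of all measured genes). Their median log2 difference was 0.24, and PTPN6 was 4-fold lower in KG1a than in each other line (7.38%). PTPN6 stood at 254 RPKM for MonoMac-1, 142 for HL60, 69.9 for THP-1 and 1.21 for KG1a, so the line with least LAIR1 also had least PTPN6. PTPN11 was alike in all lines, from 28.5 RPKM for MonoMac-1 to 49.6 for HL60. INPP5D, which encodes the lipid phosphatase SHIP-1, ranged from 29.4 RPKM for KG1a to 76.2 for THP-1.

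Most HLA class I transcripts were present on both sides of the contrast, while several other ligands were scarce in some or all lines. Of the 6 HLA class I and B2M genes described here 0 were 4-fold apart in either direction (6.56% of all measured genes). Their median log2 difference was 0.58. HLA-B stood at 1301 RPKM for MonoMac-1, 369 for HL60, 336 for KG1a and 279 for THP-1. APOE, a ligand of LILRB4, stood at 39.5 RPKM for MonoMac-1, 3.23 for THP-1, 0.608 for KG1a and 0.161 for HL60, and with CD1D it was 1 of 2 genes of the 6 measured other ligands that were 4-fold higher in the monocytic lines (4.35% of all measured genes). BST2, the ligand of LILRA4, was highest in KG1a (235 RPKM), where LILRA4 was listed at 0. ANGPTL2, a ligand of LILRB2, was at most 0.0523 RPKM, and the collagen genes COL1A1, COL4A1 and COL17A1 exceeded 1 RPKM only for COL4A1 in THP-1 (4.33) and COL17A1 in HL60 (1.30). PLAUR and ARG1, reported downstream of LILRB4 in leukemia, did not follow it: PLAUR stood at 31.0 RPKM for MonoMac-1, 19.7 for HL60, 9.32 for THP-1 and 5.80 for KG1a, and ARG1 was at most 0.0716 in any line. Of the 4 genes listed downstream 3 were measured and 0 were 4-fold apart in either direction (6.56% of all measured genes). Their median log2 difference was -0.19, and with 3 genes a count of 0 lies near the share over all genes.

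**Figure D4:**
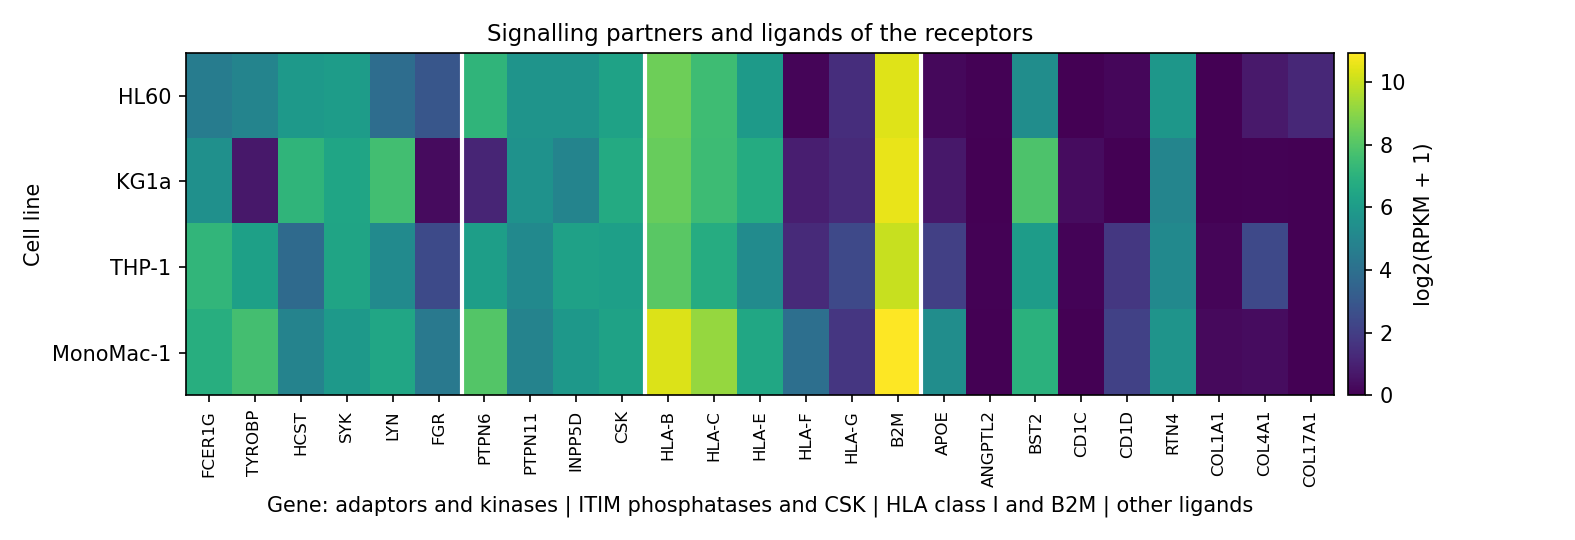
Level as log2(RPKM + 1), by colour, of adaptors and kinases, ITIM phosphatases with CSK, HLA class I with B2M, and other ligands in each line; white lines divide the 4 lists. TYROBP, FGR and PTPN6 are dark in KG1a, and APOE is brightest in MonoMac-1 (39.5 RPKM).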

How the data were processed

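RNA of 4 leukemia lines was sequenced, 1 library each. CASAVA 1.8.2 and the hg19 build appear in the submitters' processing notes; aligner, annotation, strand handling and read filters were not given in the sources used here. In their tables the authors deposited an RPKM per gene and, beside it, a whole-number coverage signal without a stated unit, read from its values as bases on the gene. Within each library the RPKM was the sum per base of gene and per base of 1 library total, scaled. For 28 repeated symbols the entry of highest mean RPKM was kept.

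Samples were grouped by line. limma 3.58.1 (R 4.3.3; lmFit, eBayes with trend, two-sided, Benjamini-Hochberg) was fitted on log2(RPKM + 1) across the 12976 genes at 1 RPKM in some line; the pseudocount of 1 understates changes of low genes. The fit was also run on simulated data, with noise equal for all genes and set below the median spread within pairs. That run therefore does not show how well the fit finds changes in these data. Promoter windows came from RefSeq and transcripts from GENCODE, both of GRCh38, and no coordinates were converted. RefSeq held windows for 8 members. Alternatives covered fold, pseudocount, minimum, scaling, the KG1a share in HL60 and each line left out.

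The members, lists, motifs and the KG1a comparison were chosen with earlier results of these data known. From the lists of adaptors and kinases and of HLA class I genes, 2 genes are not reported here and were left out of the list counts and medians afterwards. Genes were named by list, by membership, by position within 300 kilobases, and as the 4 nearest profiles (smallest Euclidean distance of log2 values) to the most abundant LILRA, LILRB and LAIR1.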

Additional observations from a re-analysis of the deposited data

How the results depend on the processing

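LILRB4 was at least 4-fold apart in all 12 alternatives to the fold rule. As it was listed at 0 in HL60 and KG1a, this was fixed in advance except for the fold taken on RPKM + 1. The count of members was 2 with a fold of 2 (LAIR1 added; 1493 genes in all against 851), 2 with no minimum (LILRB2 added; 1720 genes), and 1 to 3 with a line left out: LILRA2 and LAIR1 joined without HL60 (2229 genes) and LAIR1 without THP-1 (1463 genes), while 1479 genes were apart without KG1a and 1400 without MonoMac-1. A minimum of 5 RPKM left 489 genes, and a fold taken on RPKM + 1, chosen after seeing the data, 224, with LILRB4 in both. In limma 1 member, LILRB4, and 11 genes passed with a minimum of 5 RPKM, which leaves fewer genes to adjust over. LILRB4 reached that minimum only through the monocytic lines. Under the other alternatives that kept all lines 0 passed. The difference of LILRB1 turned to 0.10 with a pseudocount of 0.1 and ran from -0.66 to 0.48 with a line left out (higher in the monocytic lines without KG1a or MonoMac-1); the cause was not tested. With a line left out, the lone line of a pair is assumed to vary like the other pair.

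Summed RPKM became 44.5 for HL60 and 184 for MonoMac-1 with median-of-ratios scaling, and 160.2 for THP-1 and 179.6 for MonoMac-1 with quantile normalization. With a pseudocount of 0.1 the log2 ratio of THP-1 over MonoMac-1 was 1.42 for LILRB1 (0.57 with 1), and that of KG1a over HL60 was -5.93 for LILRA2, 2.95 for LILRB1 and -5.82 for LAIR1 (-3.04, 1.15 and -4.55 with 1). No paired analysis was possible because each line has 1 library. Depth leaves at a few fragments LILRA5 outside MonoMac-1 and the KG1a values of LILRA1, LILRA2 and LILRA6. The same holds for LILRA6 and LILRB3 in THP-1.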

Other observations

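Other paired receptors of myeloid cells, listed for comparison, were also low in KG1a. Of 14 further inhibitory receptors with ITIMs 12 were measured, and 8 of these were 4-fold lower in KG1a than in each other line (7.38% of measured genes). SIRPA, the receptor for CD47, stood at 20.3 RPKM for HL60, 15.6 for THP-1, 15.0 for MonoMac-1 and 0.00366 for KG1a, and CD300LF at 12.5, 13.9, 11.1 and 0.0416 in the same order. PECAM1 was the 1 gene of this list at least 4-fold higher in the monocytic lines, at 17.7 RPKM for THP-1 and 34.2 for MonoMac-1 against 3.26 for HL60 and 0.00688 for KG1a. VSTM1 and CEACAM1 were lower by that rule, at 10.96 and 4.34 RPKM for KG1a, but 0 of the list remained lower once the KG1a share was taken off HL60. Of 12 activating receptors that use FCER1G or TYROBP 10 were measured, and 7 were 4-fold lower in KG1a. TREM2, a lipid-sensing receptor of macrophages, stood at 45.4 RPKM for THP-1 and 1.35 for MonoMac-1, with 0.0312 for KG1a, and was listed at 0 in HL60.

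The profiles nearest to those of the leading members over the 4 lines were found by distance on the log2(RPKM + 1) scale. For LAIR1 the nearest was TYROBP (distance 0.57), followed by LPPR3, MYO1F and CD37. For LILRB4 they were LPHN2 (0.32), NAPSB, MT1E and NID1. For LILRA2 they were LDOC1L (0.44), DNM1, ADD2 and C4orf48. Each distance rests on 4 values, 1 per line.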
